A study of Mus musculus with 3 samples.

Results

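The genes Cxcl1, Cxcl2, Cxcl3 and Cxcl5 encode mouse CXC chemokines that attract neutrophils, and they were examined in RNA bound to chromatin of activated macrophages. The members were chosen by gene symbol, which gave 4 of the 55536 genes in the deposited gene tables. The cells were bone marrow-derived macrophages (BMDM) of strain C57BL/6J, a primary culture grown from mouse marrow precursors. They had been exposed to lipid A, the Toll-like receptor 4 (TLR4) agonist part of bacterial lipopolysaccharide, at 100 ng/ml for 50 min. RNA of the chromatin fraction, which is rich in nascent and unspliced transcripts, had been depleted of ribosomal RNA and sequenced. The 3 libraries form 1 group, biological replicates 1, 2 and 3, made from 1 µg, 250 ng and 500 ng of RNA. They carry the same donor code in the labels, and age and sex were not collected, so the spread between libraries may be technical. Untreated cells were not analysed here, so the levels below are those reached after lipid A and not a response to it.

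Chemokines of this family carry a glutamate-leucine-arginine motif before the paired cysteines, and they recruit neutrophils through the receptor encoded by Cxcr2. Cxcl1 (also called KC) and Cxcl2 (also called MIP-2) are classical early lipopolysaccharide-induced genes of macrophages, transcribed under NF-kB, with short-lived mRNAs that are cleared through tristetraprolin. Cxcl3 is their close paralog, and Cxcl5 (also called LIX) is best known from epithelial cells and platelets.

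The 4 genes lie on the plus strand of chromosome 5 (mm10, GENCODE M21) within 147 kb, in the order Cxcl5 (90759360 to 90761624), Cxcl3 (90786103 to 90789600), Cxcl1 (90891241 to 90893115) and Cxcl2 (90903871 to 90905938). Their identifiers are ENSMUSG00000029371.7, ENSMUSG00000029379.10, ENSMUSG00000029380.11 and ENSMUSG00000058427.10 in the same order. Gaps of 24478, 101640 and 10755 bases separate them, and no other annotated gene overlaps any of the 4. The stretch just before the start of transcription is shown for the 3 genes whose promoter is in the RefSeq table, because it holds the letters of the binding site of NF-kB, the factor that these promoters are known for. It runs from position -150 to -31 of the RefSeq start on the plus strand of GRCm38.p6 (chr5:90891095-90891214 for Cxcl1, chr5:90903749-90903868 for Cxcl2 and chr5:90785951-90786070 for Cxcl3), and capitals mark the bases of a kB-like match.
Cxcl1: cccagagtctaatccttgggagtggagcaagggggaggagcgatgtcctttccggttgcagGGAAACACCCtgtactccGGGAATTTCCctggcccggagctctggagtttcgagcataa
Cxcl2: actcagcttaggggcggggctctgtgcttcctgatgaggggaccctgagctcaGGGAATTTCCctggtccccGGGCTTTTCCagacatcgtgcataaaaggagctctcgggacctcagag
Cxcl3: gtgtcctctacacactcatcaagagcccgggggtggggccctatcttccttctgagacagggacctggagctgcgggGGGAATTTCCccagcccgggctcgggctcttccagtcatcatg

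The kB-like match was defined as 3 Gs, any 2 bases, 3 Ts and 2 Cs, searched on both strands of the 300 bases from 250 before to 50 after each start. It was present in all 3 promoters, against 1.63% of the 32851 promoters of that length. The same word, GGGAATTTCC, began at position -71 in Cxcl1, -97 in Cxcl2 and -73 in Cxcl3. These positions depend on the start used. The GENCODE model Cxcl2-201 starts at 90903873, upstream of the RefSeq start of Cxcl2, so the word at 90903802 lies nearer to the GENCODE start. Cxcl2 had another match, GGGCTTTTCC, at -78, and Cxcl1 had GGGTGTTTCC on the minus strand at -89. A wider pattern, 3 Gs, any 5 bases and 2 Cs, contains every narrow match, and it was found in the 3 genes and in 50.8% of all promoters. The AP-1-like letters TGANTCA, in 7.81% of promoters, were in none of the 3. TATAAA, in 13.6%, was found in Cxcl3 alone, at -30, and GGGCGG, in 35.7%, in Cxcl2 alone, at -139. The promoters of Cxcl1 and Cxcl2 hold CATAAA, which differs from TATAAA in the first base only and was not searched for. Searched in the same way, the promoters of Cxcl9, Cxcl10, Cxcl15 and Ppbp did not hold the narrow kB-like pattern. The wider pattern was present in Cxcl9 (GGGTTTTCCC at -130) and Cxcl10 (GGGAAATTCC at -159 and GGGGACTTCC at -104, among others), but not in Cxcl15 or Ppbp. These matches are letters in a window and not measured binding.

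Cxcl2 was the most abundant of the 4 transcripts on chromatin, followed by Cxcl1, while Cxcl3 was in the lower part of the detected range and Cxcl5 was not detected. A gene was called detected with at least 10 expected counts, the fractional read counts of the gene tables, in each library. By this rule 3 of the 4 genes were detected, against 43.9% of 22028 protein-coding genes. Levels are given as TPM of the gene tables (the first quantification), transcript abundance corrected for length and scaled to the same sum in each library. In bulk RNA, fewer transcribing cells and less RNA per cell cannot be told apart.

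Cxcl2 stood at 409, 382 and 518 TPM in replicates 1, 2 and 3, a mean of 436 ± 71.8 (SD, n = 3). It rested on 8007, 14204 and 11883 expected counts and ranked 41 among the 9665 detected protein-coding genes (56, 40 and 32 in the single libraries). Replicate 3 was the highest, and the other two libraries lay close together.

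Cxcl1 stood at 168, 98.4 and 167 TPM, a mean of 144 ± 39.8 (SD, n = 3), from 3230, 3618 and 3880 counts. Replicate 2 was the low library and replicates 1 and 3 were nearly equal. The gene ranked 230 of 9665, and 224, 292 and 200 in the single libraries. Cxcl1 and Cxcl2 were the only members with a mean of at least 100 TPM, a level reached by 1.69% of protein-coding genes.

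Cxcl3 stood at 0.95, 1.11 and 1.09 TPM (mean 1.05 ± 0.0872, SD, n = 3). Its counts were 27.1, 68.1 and 36.3, with exact Poisson 95% intervals of the rounded counts of 17.8 to 39.3, 52.8 to 86.2 and 25.2 to 49.8. These intervals cover counting error only, since the tables carry no molecular identifiers. Cxcl3 ranked 8208 of 9665, so 15% of detected protein-coding genes lay below it.

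Cxcl5 had 0, 1 and 0 expected counts and 0, 0.0300 and 0 TPM. A count of 0 allows up to 3 counts, and the two-sided exact intervals used above reach 3.69, 5.57 and 3.69 counts. A lower level was not detectable at this depth of 10496688, 17687368 and 14806101 gene counts per library.

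The steps between neighbours in this order were taken within each library as differences of log2(TPM + 0.1). Cxcl2 exceeded Cxcl1 by 1.28, 1.96 and 1.63 in replicates 1, 2 and 3, a mean of 1.62 ± 0.34 or 3.08-fold. The difference was larger than its spread and had the same sign in 3 of 3 libraries. Cxcl1 exceeded Cxcl3 by 7.32, 6.35 and 7.13, a mean of 6.93 ± 0.52 or 122-fold, again larger than its spread. An exact two-sided sign-flip test gave p = 0.25 for each step, the smallest p that 3 libraries allow. The step between Cxcl3 and Cxcl5 (3.39 ± 0.18) depends on the pseudocount because Cxcl5 was at or near 0.

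A second deposited quantification, made from the reads and not from the transcriptome alignments per the deposited notes, gave the same order for the upper 3 genes. Cxcl2 averaged 384 ± 35.6 TPM, Cxcl1 132 ± 36.8 and Cxcl3 1.11 ± 0.131 (SD, n = 3 each). The ratio of second to first was 0.881 for Cxcl2 and 0.913 for Cxcl1, while the median detected protein-coding gene had a ratio of 1.60. Only 1.06% of those genes had a smaller ratio than Cxcl2 and 1.62% a smaller one than Cxcl1, so both ranked lower in the second quantification, at 92 and 470 of 13436. Cxcl3 had a ratio of 1.05 and ranked 11071.

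Cxcl5 was the exception. The second quantification gave it 76.8, 132 and 107 estimated counts, or 3.68, 3.13 and 3.31 TPM (mean 3.37 ± 0.280, SD, n = 3). All of these counts were placed on the spliced transcript Cxcl5-201. Cxcl5 then stood above Cxcl3, and Cxcl3 minus Cxcl5 was -1.52 ± 0.23 in log2 units, negative in 3 of 3 libraries. Among 9213 protein-coding genes with under 3 expected counts in each library of the first quantification, 11.0% had at least 50 estimated counts in each library of the second. Of the 1545 words of 31 bases in Cxcl5-201, 69 (4.47%) also occur in transcripts of 12 other genes. Whether these words take part in the difference was not tested, and the level of Cxcl5 is uncertain.

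**Figure D1:**
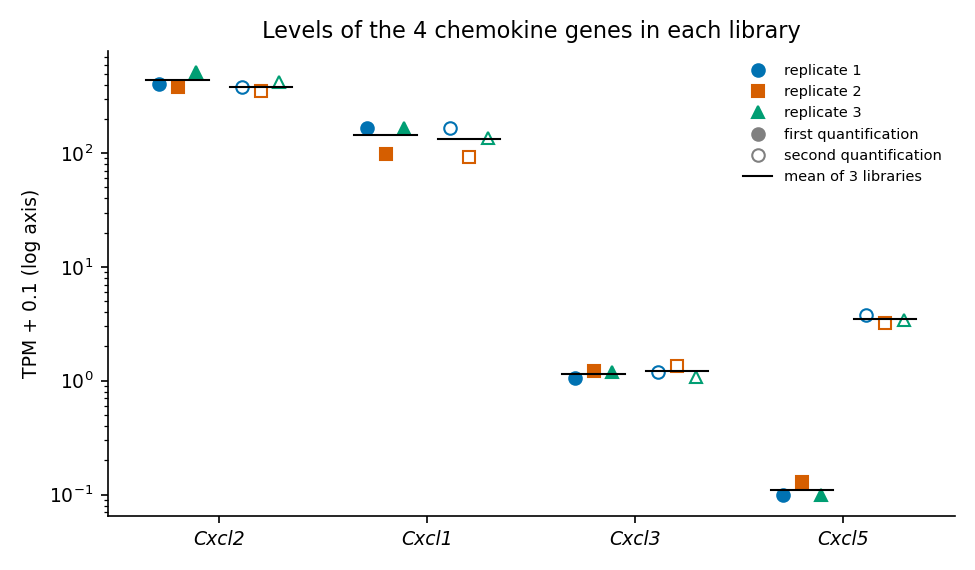
TPM (0.1 added, log axis) of the 4 genes in each library, filled symbols for the first quantification and open symbols for the second, with a black line at the mean of the 3 libraries. Cxcl2 lies between 382 and 518 TPM and Cxcl1 between 98.4 and 168 in the first quantification, Cxcl3 lies near 1 TPM in both, and Cxcl5 is near 0 in the first and between 3.13 and 3.68 TPM in the second.

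The proportion of the 2 abundant genes varied between libraries. Of the summed TPM of the 4 genes (577, 482 and 686), Cxcl2 made up 70.8%, 79.3% and 75.5% and Cxcl1 29.1%, 20.4% and 24.3%. Among the counts of Cxcl1 and Cxcl2 together, Cxcl1 held 28.7% in replicate 1 (exact Clopper-Pearson 95% interval 27.9 to 29.6), 20.3% in replicate 2 (19.7 to 20.9) and 24.6% in replicate 3 (23.9 to 25.3). These intervals cover counting error only and treat reads as independent molecules, so at this depth they are narrow, and their not overlapping says nothing of how much separate libraries usually vary. The second quantification gave 29.0%, 20.3% and 24.6%. The TPM ratio of Cxcl2 to Cxcl1 was 2.44 with 1 µg of starting RNA, 3.11 with 500 ng and 3.89 with 250 ng. With 1 library at each amount, the amount of RNA and the replicate cannot be told apart.

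Scaled to the same library composition (TMM-normalised CPM, that is, counts relative to library size), the 3 detected genes did not share 1 lowest library. Cxcl1 had 268, 220.2 and 279 CPM in replicates 1, 2 and 3, with replicate 2 lowest. Cxcl2 had 665, 864 and 855 CPM, with replicate 1 lowest. Cxcl3 had 2.28, 4.17 and 2.63 CPM, with replicate 1 lowest, as for Cxcl2, and replicate 2 highest. The highest and lowest libraries differed by 0.34 on the log2 scale for Cxcl1, 0.38 for Cxcl2 and 0.87 for Cxcl3, against a median of 0.61 over 13262 genes with a mean of at least 10 counts. None of the 3 reached a range of 1, which 22.2% of those genes did. Among the 1873 genes with a mean of at least 1000 counts the median range was 0.47, and 34.0% of them had a smaller range than Cxcl1 and 39.3% a smaller one than Cxcl2.

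**Figure D2:**
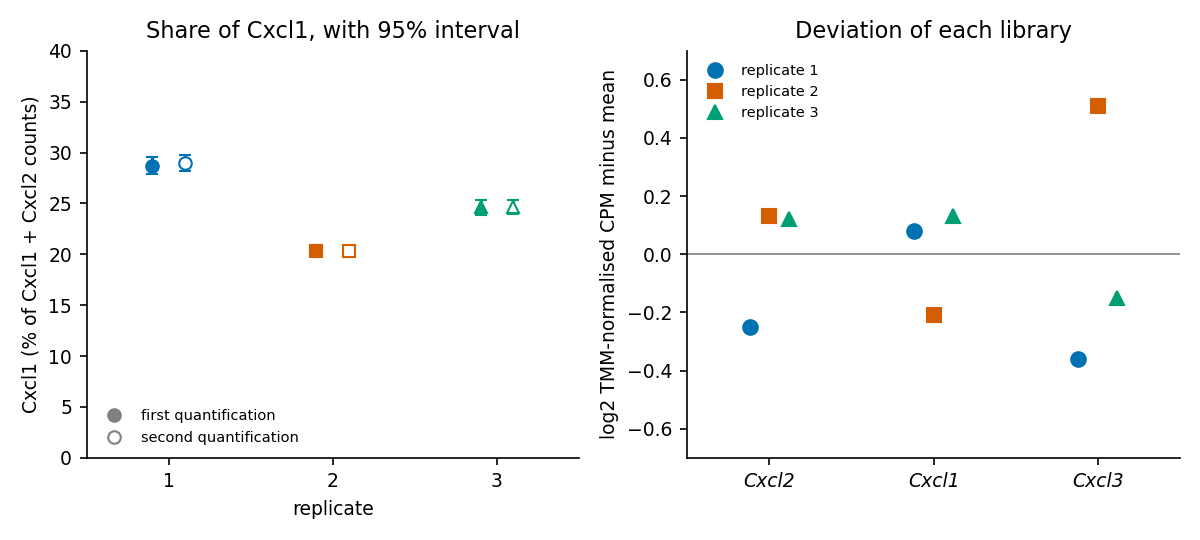
Left, Cxcl1 as a percentage of Cxcl1 plus Cxcl2 counts by replicate, with 95% binomial intervals, filled symbols for the first and open symbols for the second quantification. Right, log2 TMM-normalised CPM of each library minus the mean of the 3 libraries: replicate 2 lies at -0.21 for Cxcl1 and 0.51 for Cxcl3, and replicate 1 at -0.25 for Cxcl2.

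The scaling matters for Cxcl2. Replicate 2 was the lowest library for Cxcl1 under each of the 6 scalings tried, whereas Cxcl2 was lowest in replicate 1 under 5 of them and in replicate 2 by TPM. Of 25 other genes of the NF-kB response, 16 (64.0%) were lowest in replicate 2 by TMM-normalised CPM, against 34.4% of all 13262 genes, and 7 (28.0%) were lowest in replicate 1 like Cxcl2, against 39.8% of all genes. The genes whose deviations lay nearest to those of each member, by Euclidean distance over the 3 libraries, were Tmem206, Fem1c and Rcan1 for Cxcl1 (0.009 to 0.019 log2 units). They were Ninj1, Ciz1 and 2210408I21Rik for Cxcl2 (0.003 to 0.005) and Dus2, Mybbp1a and Mefv for Cxcl3 (0.017 to 0.041). The search covered protein-coding genes with a mean of at least 10 CPM, which Cxcl3 at 3.03 CPM did not reach. With 3 libraries such likeness can be shared by many genes. Within 0.1 lay 128 of 5268 genes for Cxcl1, 293 of 5268 for Cxcl2 and 18 of 5269 for Cxcl3.

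On average, most of the chromatin-bound Cxcl1, Cxcl2 and Cxcl3 RNA was assigned to intron-retaining models. Each of the 4 genes has a spliced coding model of 4 exons. In Cxcl1, Cxcl2 and Cxcl3 the 3 introns are similar in size, 89, 115 and 718 bases in Cxcl1, 92, 117 and 748 in Cxcl2 and 92, 118 and 765 in Cxcl3, and Cxcl5 has 128, 142 and 402. The end of exon 1 and the start of intron 1 are shown because reads that run on across this border into the intron come from unspliced RNA. Capitals mark the exon (GRCm38, plus strand, chr5:90891366-90891395, chr5:90904009-90904038 and chr5:90786235-90786264).
Cxcl1: GCCGCCTGGCCACAGgtaggtctcgccact
Cxcl2: ACCACCAGGCTACAGgtgggattcggattc
Cxcl3: ACCACCAGGCTACAGgtgggattcggattc

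The borders of Cxcl2 and Cxcl3 are identical over these 30 bases. Their coding sequences are 89.7% identical, and their spliced transcripts share a run of 110 bases. In coding sequence Cxcl1 is 75.7% identical to Cxcl2 and 72.7% to Cxcl3, and Cxcl5 is 45.6% to 48.9% identical to the others. Of the 1079 words of 31 bases in the spliced Cxcl2 model Cxcl2-201, 80 (7.41%) recur in Cxcl3, as do 91 words (24.8%) of the short model Cxcl2-204. No word of either Cxcl1 model recurs in another gene. In Cxcl3-202, the unspliced model that took most Cxcl3 counts, 190 of 3468 words (5.48%) recur in at least 1 of 2799 other genes, and 143 of the words recur in Cxcl2. The deposited posterior SD of the gene count was 0.230, 0.310 and 0.490 counts for both Cxcl2 and Cxcl3, and 0 for Cxcl1. This measure covers the split of reads in the authors' model only.

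For Cxcl1, the single-exon model Cxcl1-202 (1871 bases, spanning the gene without splicing) received 2855, 3222 and 3249 counts, against 375, 396 and 631 for the spliced Cxcl1-201 (953 bases). The retained-intron model made up 77.4%, 78.1% and 69.3% of the gene's TPM in replicates 1, 2 and 3 (mean 74.9 ± 4.91, SD, n = 3). This was above the median of 41.5% over 6175 detected protein-coding genes that have a retained-intron model, and larger than in 91.1% of them. In the second quantification the mean share was 72.8%, larger than in 82.1% of 7605 genes. Some retained-intron models span the gene and others are short, so these rankings also depend on which models are annotated.

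Cxcl2 has 4 models. The single-exon Cxcl2-203 (2066 bases) received 5799, 8967 and 7538 counts and the spliced Cxcl2-201 (1109 bases) 1168, 2333 and 2721. The remaining counts went to Cxcl2-202, a coding model of 3 exons (960.2, 2823 and 1502), and to Cxcl2-204, a retained-intron model of 397 bases (80.0, 81.2 and 122). With 1859 of the gene's 2068 bases, Cxcl2-202 lacks only introns 1 and 2 and so keeps the 748-base intron 3, although it is typed as coding. It held 10.8%, 17.7% and 10.4% of the gene's TPM, and the posterior SD of its counts was 105, 139 and 103. Without Cxcl2-202, both models typed as retained-intron together held 65.3%, 55% and 54.6% of the gene's TPM (mean 58.3 ± 6.09), larger than in 74.3% of the genes. Replicate 1 was the high library, and replicates 2 and 3 were nearly equal.

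For Cxcl3, the single-exon model Cxcl3-202 (3498 bases) received 22.4, 60.3 and 28.5 counts and the spliced Cxcl3-201 (1016 bases) 4.67, 7.77 and 7.76. The retained-intron share of TPM was 54.2%, 64.9% and 46.8% (mean 55.3 ± 9.09), larger than in 70.1% of the genes, and rests on few counts. Cxcl3-202 also runs on to position 90789600, beyond the end of Cxcl3-201 at 90788093. Reads in that stretch count towards the share without coming from an intron. All 3 genes had their lowest share in replicate 3, which was the lowest library for 42.0% of the 6175 genes. The median gene had 46.1%, 39.9% and 38.8% in replicates 1, 2 and 3. Each of the 3 genes lay above this median in each library.

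**Figure D3:**
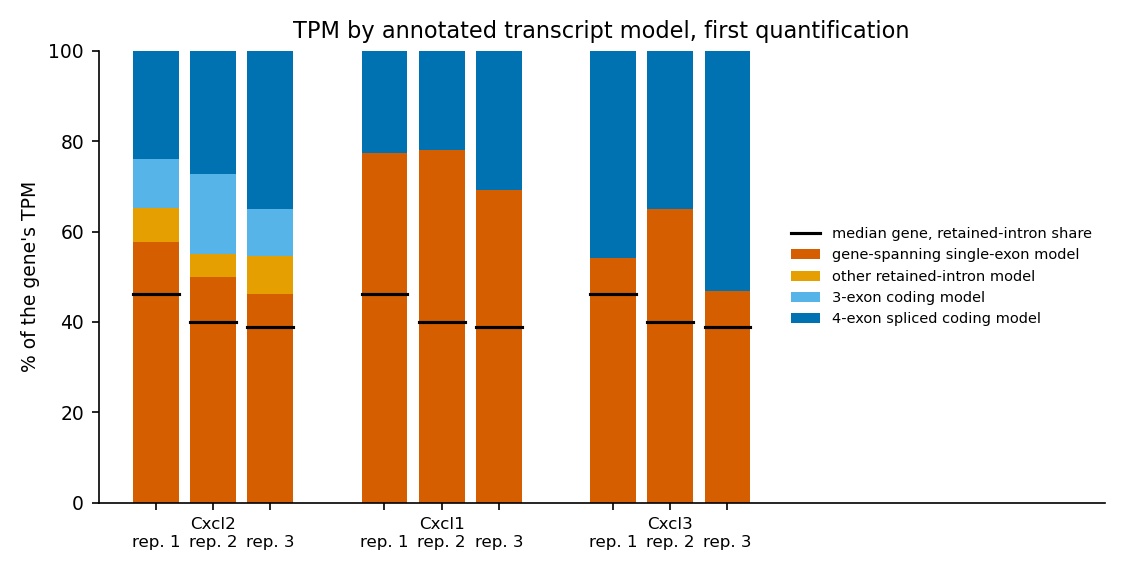
Percentage of each gene's TPM assigned to each annotated transcript model in each library, first quantification; black lines mark the median retained-intron share of 6175 genes in that library. The single-exon model alone reaches 69.3% to 78.1% in Cxcl1, 46.2% to 57.8% in Cxcl2 and 46.8% to 64.9% in Cxcl3, above the median gene in every library.

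Few of the genes around the 4 chemokine genes were detected in the first quantification, and more were in the second. Within 500 kb of a member lie 28 other annotated genes, of which 15 are protein-coding. In the first quantification 3 of these 15 were detected, against 43.9% of all protein-coding genes, and in the second 7, against 61.0%. The 3 were Ankrd17, an ankyrin repeat gene (76.0 ± 21.6 TPM), Mthfd2l, a mitochondrial folate enzyme gene (2.48 ± 0.582), and Areg, the EGF receptor ligand amphiregulin (1.68 ± 1.07, SD, n = 3 each). Of the 13 genes that are not protein-coding, 0 were detected in the first quantification and 4 in the second. These included the annotated ribosomal RNA gene Gm22816, 265 bases beyond Cxcl1, at 115 TPM, and the small nuclear RNA gene Gm23092 at 319 TPM, both at 0 in the first and named after their values were seen. In the first quantification 19 of the 28 were at 0 TPM in each library. Between Cxcl5 and Cxcl3 lie Ppbp and Pf4, both platelet chemokine genes. Ppbp was at 0, 0.09 and 0 TPM, and Pf4 at 0.980, 4.56 and 1.33 TPM from 5, 29 and 8 counts. Cxcl15, a lung epithelial chemokine gene (also called lungkine) that lies 4934 bases beyond Cxcl3, had 0 counts in the first quantification and a mean of 2.07 TPM in the second, where Pf4 (5.73 TPM), Ereg (1.54) and Btc (3.90) were also detected. The other protein-coding neighbours, at first-quantification means, were the albumin family genes Alb (0 TPM), Afp (0.0433) and Afm (0), the gene 5830473C10Rik (0), Rassf6 (0), Gm9958 (0.243), and the EGF family genes Epgn (0.0133), Ereg (0) and Btc (0).

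**Figure D4:**
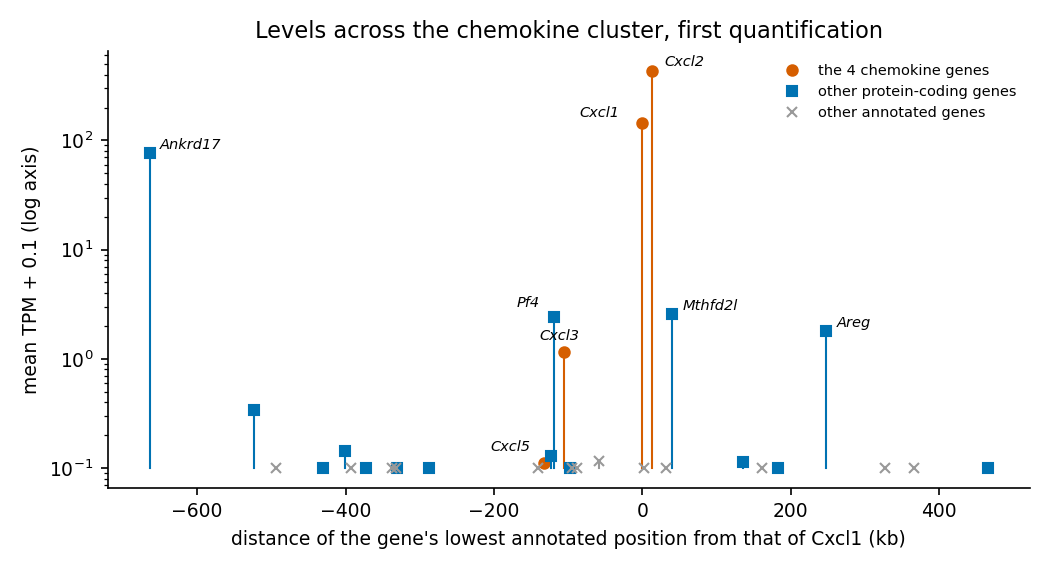
Mean TPM (0.1 added, log axis) of every annotated gene within 500 kb of the 4 genes against the distance of its lowest annotated position from that of Cxcl1, in kb. Cxcl1 and Cxcl2 stand at 144 and 436 TPM, Ankrd17 at 76.0, and all others below 3 TPM, in the first quantification.

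Among the 11 other CXC ligand genes, 2 were detected in the first quantification, against 43.9% of all protein-coding genes, and both were below Cxcl1. Cxcl16, a membrane-anchored ligand of the receptor CXCR6, stood at 97.5, 75.9 and 99.2 TPM (90.9 ± 13.0), and Cxcl10, an interferon-induced ligand of CXCR3, at 67.7, 10 and 69.8 (49.2 ± 33.9, SD, n = 3 each). Cxcl10 was low in replicate 2, the library in which Cxcl1 was also lowest, and by a wider margin. In the second quantification 7 of the 11 were detected, near the share of 61.0% over all protein-coding genes. Cxcl16, at a mean of 137 TPM in the second quantification, was above Cxcl1 at 132. The other CXCR3 ligands Cxcl11 and Cxcl9 averaged 0.257 and 0.160 TPM, Cxcl12, the ligand of CXCR4, 0.0167, and Pf4 and Ppbp 2.29 and 0.0300. Cxcl13, Cxcl14, Cxcl15 and Cxcl17 were at 0 TPM in each library of the first quantification.

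The receptor for the 4 chemokines was not seen in the same RNA. Cxcr2 had 0 expected counts in each library and Cxcr1 averaged 0.0300 TPM. Of the 8 receptor genes, 2 were detected in the first quantification, against 43.9% of all protein-coding genes, and 3 in the second, against 61.0%. The 2 were Cxcr4 (2.51, 1.65 and 2.92 TPM) and Cxcr6 (1.61, 0.75 and 0.8). In the first quantification Cxcr3 averaged 0.0700 TPM, and Cxcr5 and the atypical receptor genes Ackr1 and Ackr3 were at 0. The second quantification placed 123, 185 and 141 estimated counts on Cxcr2, a mean of 2.36 TPM, so this absence holds for the first quantification only.

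**Figure D5:**
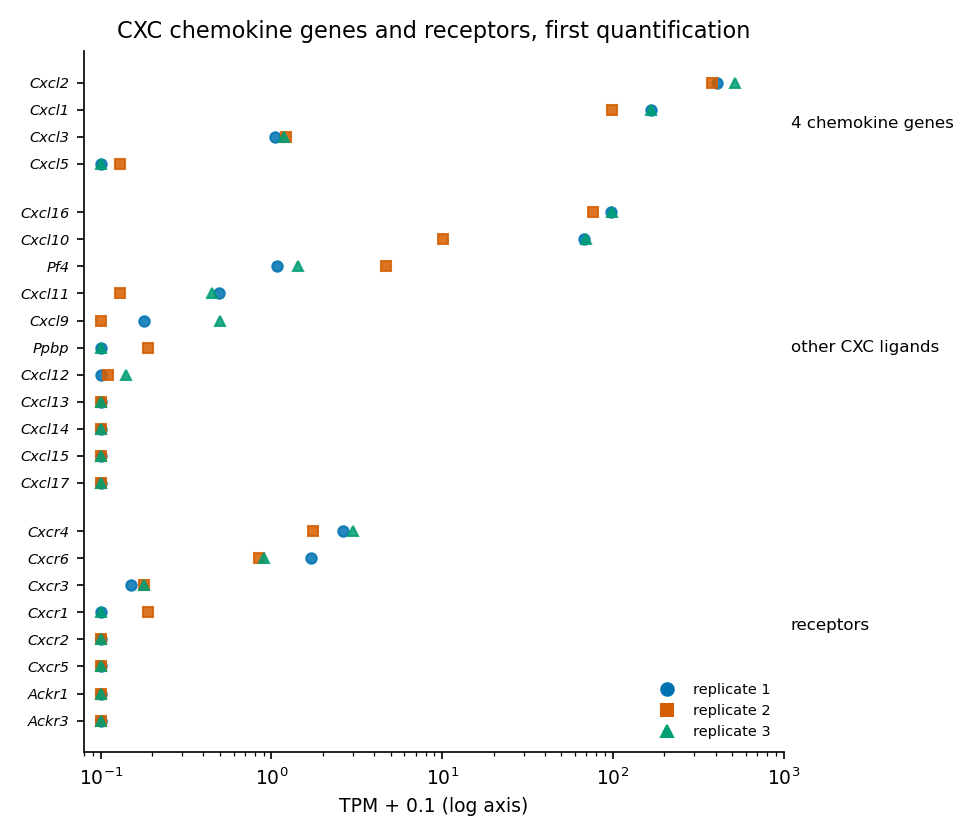
TPM (0.1 added, log axis) in each library of the 4 chemokine genes, the 11 other CXC ligand genes and the 8 receptor genes, first quantification. Cxcl2 and Cxcl1 lie to the right of all others except that Cxcl1 in replicate 2, at 98.4 TPM, falls within the values of Cxcl16 (75.9 to 99.2), and Cxcr2 lies at 0 in each library.

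Other signals that act on neutrophils were set beside them. Of 10 such genes, 8 were detected, against 43.9% of all protein-coding genes, and 4 reached 100 TPM, against 1.69%. These 4 were Il1b, the cytokine interleukin-1 beta (682 ± 149.6), Tnf, tumor necrosis factor (345 ± 92.9), Ccl4, a CC chemokine (159 ± 82.8), and Il1a, interleukin-1 alpha (159 ± 26.6, SD, n = 3 each). In the first quantification 1 of the 10, Il1b, exceeded Cxcl2 and these 4 exceeded Cxcl1, and in the second 3 exceeded Cxcl2 and 5 exceeded Cxcl1. The lowest 2 were Csf3, the granulocyte colony-stimulating factor (0.363 TPM), and Alox5, the leukotriene-forming lipoxygenase (0.187). By TPM, 7 of the 8 genes with a mean of at least 10 counts were lowest in replicate 2, as were Cxcl1, Cxcl2 and 8524 of all 13262 genes. By TMM-normalised CPM, 4 of the 8 were lowest there.

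All 14 genes for transcription factors known at these promoters were detected, against 43.9% of all protein-coding genes. Their median was 23.5 TPM, against 0.223 TPM over all protein-coding genes. The highest were Nfkb1, the p105 and p50 subunit of NF-kB (269 ± 48.0 TPM), Nfkbiz, the nuclear cofactor IkB-zeta (249 ± 67.0), Nfkb2 (168 ± 33.1) and Relb (72.7 ± 11.8), both NF-kB subunit genes. The lowest were Sp1 (5.30 ± 1.72) and Cebpd (0.607 ± 0.284, SD, n = 3 each). Cxcl2 stood above all 14 and Cxcl1 above all but 3. All 8 genes for proteins that control the stability of such mRNAs were detected, against the same 43.9%, and each was below Cxcl1. Zfp36, which encodes tristetraprolin, was the highest (75.8, 35.4 and 61.6 TPM, mean 57.6 ± 20.5). It was followed by Hnrnpd, the AU-rich element binder AUF1 (28.8 ± 8.29), Zc3h12a, the endonuclease regnase-1 (26.2 ± 1.92), and Khsrp (12.3 ± 2.62), with the tristetraprolin paralogs Zfp36l1 (6.70 ± 2.70) and Zfp36l2 (2.67 ± 0.728) lowest.

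Against 25 other genes of the NF-kB response, Cxcl2 was among the highest and Cxcl3 below all. All 25 were detected, against 43.9% of all protein-coding genes. Their median was 116 TPM, against 0.223 TPM over all protein-coding genes. Cxcl2 was exceeded by 3 of the 25 and Cxcl1 by 12, and these counts were 9 and 16 in the second quantification. The highest were Tnfaip2 (2249.7 ± 632 TPM), Tnfaip3, the deubiquitinase A20 (652 ± 116), Sod2, the mitochondrial superoxide dismutase (500.5 ± 82.8), and Icam1, an adhesion molecule for leukocytes (431 ± 122). The lowest were the kinase gene Src (5.32 ± 0.655) and the cytokine gene Il6 (2.10 ± 1.49, SD, n = 3 each), so Cxcl3 at 1.05 TPM was below every comparator in both quantifications.

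In the first quantification, which detected 43.9% of all protein-coding genes, the macrophage markers were detected and most markers of other cell types were not. All 12 macrophage markers were detected, with a median of 43.9 TPM, the highest being Mrc1 (179 ± 12.5), Msr1 (178 ± 31.7), Cd14 (170.2 ± 80.9) and Csf1r (122 ± 27.0) and the lowest Fcgr1 (1.88). Of 12 neutrophil markers 1 was detected, Csf3r (35.2 ± 4.73 TPM), which macrophages also express, while Ly6g and Retnlg were at 0 in each library. S100a9, Ltf and Mmp8 averaged 0.393, 0.277 and 0.127 TPM, and the summed list gave 34.4, 32.8 and 41.5 TPM. Detected platelet markers were 3 of 7 (summed 9.10, 8.98 and 16.7 TPM), endothelial 2 of 7 (50.5, 43.1 and 64.8, mostly Vwf at 50.4 ± 10.8), fibroblast 0 of 7 (0.03, 0.95 and 0.92) and epithelial 0 of 6 (0 in each library). The second quantification, which detected 61.0% of all protein-coding genes, detected more of the markers of other cell types. They were 2 of 12 neutrophil, 6 of 7 platelet, 4 of 7 fibroblast, 3 of 7 endothelial and 1 of 6 epithelial markers. The shares of platelet markers in the first quantification and of fibroblast markers in the second were near those of all protein-coding genes.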

How the data were processed

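Libraries of ribosomal RNA-depleted, chromatin-fraction RNA (n = 3) were analysed. The first quantification is the deposited gene and transcript tables, in which the authors give expected counts, TPM and FPKM (mm10, GENCODE M21, per the deposited notes). Isoform percentages as deposited by the authors in the transcript tables were not used, and shares were taken from TPM. The second quantification is a deposited transcript table of estimated counts and TPM by the authors, summed here per gene. The aligner, tools, versions and strand setting are not given in the sources used here. The 26345 rows that name no mouse gene held 1.28%, 0.427% and 0.383% of expected counts in replicates 1, 2 and 3 and were left out. The remaining counts summed to 10496688, 17687368 and 14806101, and in the second quantification to 16644289, 30070159 and 25184199.

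Members and gene lists were chosen with earlier results of these data known. Named genes were all 4 members, every CXC ligand and receptor gene, the 4 highest and 2 lowest of each other list by mean TPM, protein-coding genes within 500 kb, and the 3 genes nearest to each detected member. Neutrophil markers beyond the rule were named after their values were seen. The level of 1 macrophage marker is not reported here. TMM factors from edgeR 4.0.16 under R 4.3.3, on expected counts rounded to whole numbers, were 1.15, 0.929 and 0.938. Log2 CPM had 0.5 added to each count, and the scaling code was tested on simulated data. DESeq2 1.42.0 size factors were an alternative. Log2 TPM differences had 0.1 added. Exact Poisson and Clopper-Pearson intervals were 95%. Promoters are from RefSeq (GRCm38.p6, 3 of 4 members matched), transcripts from GENCODE M21. With 1 group, no condition was compared.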

Additional observations from a re-analysis of the deposited data

Results flagged for a closer look

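Several chemokine and receptor genes had counts in the second quantification that the first did not show, each with under 3 expected counts in every library of the first. Cxcl5 had a mean of 105 estimated counts. Cxcr2, the receptor gene for the 4 chemokines, had a mean of 149.9, and Cxcl15 had 95. Cxcl13, which encodes a B cell-attracting chemokine, had 13.3 and Ackr3, which encodes an atypical receptor of CXCL12, had 9.00. No control library was analysed here to give a background for these counts, and 11.0% of protein-coding genes with under 3 expected counts in each library had at least 50 estimated counts in each library of the second quantification. Cxcl13 and Ackr3 were below 50 in each library and Cxcl15 in replicate 1 (46.5). The genes were flagged at more than 3 estimated counts in each library, and the share of all genes passing that rule was not computed.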

How the results depend on the processing

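Over 20 results and 56 alternatives that kept all libraries, 39 values were scored as unchanged, 16 as moved and 1 as reversed. Unchanged meant a move smaller than the SD between libraries. Counts of detected genes have no such SD, and for them it meant a small fold change from the main count. The reversal was the step from Cxcl3 to Cxcl5, which was -1.52 (log2) in the second quantification, 1.02 and 6.06 with 1 and 0.01 TPM added, and 3.68 by FPKM. The cause of the reversal was not tested. Cxcl5 stood at 3.37 TPM in the second quantification. Over protein-coding genes alone, TPM became 723 for Cxcl1, 2232 for Cxcl2, 5.45 for Cxcl3 and 0.0609 for Cxcl5, because the denominator is smaller. The step from Cxcl1 to Cxcl3 was 6.11 with 1 TPM added. Ranges between libraries became 0.59 (library totals) and 0.77 (log2 TPM) for Cxcl1, 0.07 (library totals) for Cxcl2 and 0.20 (log2 TPM) for Cxcl3. The retained-intron share of Cxcl3 was 65.5% in the second quantification. Other CXC ligands counted as detected were 4 with at least 1 count, which 12474 of 22028 protein-coding genes had in each library. In the second quantification they were 7, against 61.0% of protein-coding genes. Leaving out 1 library, 57 of 60 values were scored as unchanged. For levels, steps and shares this was fixed in advance, because dropping 1 of 3 libraries cannot move a mean by as much as their SD. The exceptions were ranges that fall when the outlying library is removed: Cxcl1 0.06 to 0.34 (lowest without replicate 2), Cxcl2 0.02 to 0.38 (without replicate 1) and Cxcl3 0.20 to 0.87 (without replicate 2). No paired analysis was possible because the 3 libraries form 1 group. Depth limits Cxcl3 and Cxcl5, with under 100 expected counts in each library.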
